A study of Mus musculus with 12 samples.

Results

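The genes described here are 39 members of the NF-kB pathway and of the cytokines, chemokines and inflammatory effectors that it controls, out of 23184 gene symbols in the deposited table. They were chosen by symbol, with earlier results of these data known, so a high called share among them is no independent test. By role, 4 were NF-kB subunits, 5 IkB family members and feedback inhibitors, and 7 receptors and adaptors. Another 9 were cytokines and growth factors, 9 chemokines, and 5 enzymes, adhesion molecules and other effectors. The RNA came from HL-1 cells, a line derived from mouse atrial muscle that the labels call a cardiac muscle cell line, in 3 groups of 4 libraries, all grown in DMEM with 10% foetal bovine serum. The control group (CON, genotype WT) had been infected with virus made from the pCDH and lentiCRISPRv2 vectors. The knockdown group (KD, genotype WDR62-) had been infected with virus carrying an sgRNA against Wdr62, a scaffold protein of the mitotic spindle poles. The group labelled RE (genotype WDR62+) was KD cells infected in addition with virus made from pCDH-WDR62-WT-flag. For KD the labels name no pCDH vector, which CON and RE both had, so an effect of the guide and an effect of the missing vector cannot be told apart in KD against CON. In the same way, effects of the insert and of the vector cannot be told apart in RE against KD. No guide sequence, clone number or species of the WDR62 insert is given in the labels.

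NF-kB is a family of dimeric transcription factors held in the cytoplasm by IkB proteins. Receptors of microbial products and of inflammatory cytokines signal through adaptors to the IkB kinase, which marks IkB for destruction and frees the dimers to enter the nucleus and bind kB sites. Among the genes then transcribed are cytokines and chemokines that call in leukocytes and also IkB proteins and the deubiquitinase gene Tnfaip3, which shut the response down again. In the heart this pathway is known from infarction, myocarditis and pressure overload, in which muscle cells and fibroblasts as well as leukocytes make cytokines.

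Wdr62, the gene targeted in KD, was at 7.45, 6.61, 6.50 and 3.38 TPM in CON 1 to CON 4, at 1.40, 0.944, 1.37 and 0.881 TPM in KD 1 to KD 4, and at 1.47, 0.771, 0.827 and 1.99 TPM in RE 1 to RE 4. All 8 KD and RE libraries lay below all CON libraries, and KD and RE overlapped. Wdr62 fell by 1.67 ± 0.25 in KD on the log2(TPM + 1) scale (SE, limma adjusted p = 0.000921, two-sided exact permutation p = 0.0286, the smallest that 4 libraries against 4 allow). The libraries labelled RE differed from KD by 0.05 (95% interval -0.48 to 0.58, limma adjusted p = 0.895), so the label of added WDR62 had no counterpart in the Wdr62 values of this table. Whether transcripts of the insert were counted there was not tested.

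The values are TPM (transcripts per 1000000), and each library sums to 1000000, so sequencing depth is unknown and no counting interval can be given. Between 14060 and 14733 genes were above 0 in a library. CON 4, RE 1 and RE 3 stood apart from their groups in long transcripts: over the 2268 tested genes whose transcripts reach 5194 bases or more, the median log2 deviation from the mean of all libraries came to -0.82 for CON 4, with 0.46 to 0.70 for CON 1 to CON 3. It came to -0.72 for RE 1 and -0.99 for RE 3, with -0.11 for RE 2 and -0.13 for RE 4. KD 3 was the lowest KD library, at -0.21 against 0.06 to 0.56. The labelled cell type was only partly seen in its markers: of 20 heart muscle genes 7 passed the filter of a mean of 1 TPM, Gja1 (410 to 949 TPM), Des (284 to 632 TPM) and Tnnt2 (12.9 to 26.7 TPM) among them, while Myl7, Sln, Actc1 and Actn2 were listed at 0 in every library and the atrial hormone gene Nppa reached at most 0.443 TPM. Of 16 leukocyte and macrophage markers 12 were under 1 TPM in every library, with Adgre1 and Tyrobp listed at 0 throughout and Ptprc at 0 in 11 libraries and at 0.0434 TPM in RE 4. The summed leukocyte list was 8.46 to 13.7 TPM in CON, 17.9 to 34.7 in KD and 18.5 to 31.6 in RE, and within it the lysozyme gene Lyz2 rose by 2.17 ± 0.29 in KD (limma adjusted p = 0.000505). The fibroblast list summed to 2325 to 3647 TPM in CON, 2353 to 3573 in KD and 1240 to 2088 in RE, nearly all of it Col3a1, which was not called in KD (-0.02, limma adjusted p = 0.982). Of the 6 tested fibroblast genes 3 others fell in KD: the matrix proteoglycan gene Dcn by 2.65 ± 0.33 (0.000304), the surface protease gene Fap by 1.23 ± 0.24 (0.00615) and the collagen gene Col1a1 by 0.75 ± 0.19 (0.0244). Dcn was at 23.6, 25.2, 36.8 and 81.4 TPM in CON, 4.10 to 6.18 TPM in KD and 2.67 to 4.11 TPM in RE, so that CON lay far above both other groups. In RE against CON these 3 and Col3a1 were called lower, and in RE against KD Col1a1 was (0.0311). The RE against CON call of Col3a1 was lost in 9 of 22 alternatives. Median-of-ratios scaling and leaving out any of 5 single libraries were among them (adjusted p up to 0.116). The RE against KD call of Col1a1 was lost in 12, among them that scaling and leaving out any of 8 single libraries (up to 0.153). The heart transcription factor gene Nkx2-5 rose by 1.10 ± 0.27 in KD (0.0229) and by 1.63 ± 0.27 in RE against CON (0.00309). The KD call of Col1a1 ended when any of CON 1 to CON 3 or KD 4 was left out (highest adjusted p = 0.0799). That of Nkx2-5 ended when any of CON 1 to CON 3, KD 1 or KD 4 was (0.0825), and under both scalings (0.116 at most). The endothelial list never passed 1.38 TPM.

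RNA of the module was abundant in every group, and most of it was chemokine RNA. The 39 genes took 1.28% to 1.63% of all TPM in CON, 1.92% to 2.74% in KD and 1.81% to 2.34% in the libraries labelled RE. Ccl2 and Ccl7, which attract monocytes, and Cxcl1 and Cxcl5, which attract neutrophils, were the 4 most abundant members by mean, each with a mean of at least 1990.2 TPM in every group. Ccl2 ranked between 8 and 39 among all genes of a library, Cxcl1 between 5 and 29, Ccl7 between 12 and 24 and Cxcl5 between 10 and 104. At the other end 9 members stayed under the mean of 1 TPM needed for a test, namely Traf1, Birc3, Il1b, Csf2, Csf3, Tnf, Ccl20, Cxcl2 and Icam1, and 30 were tested.

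**Figure D1:**
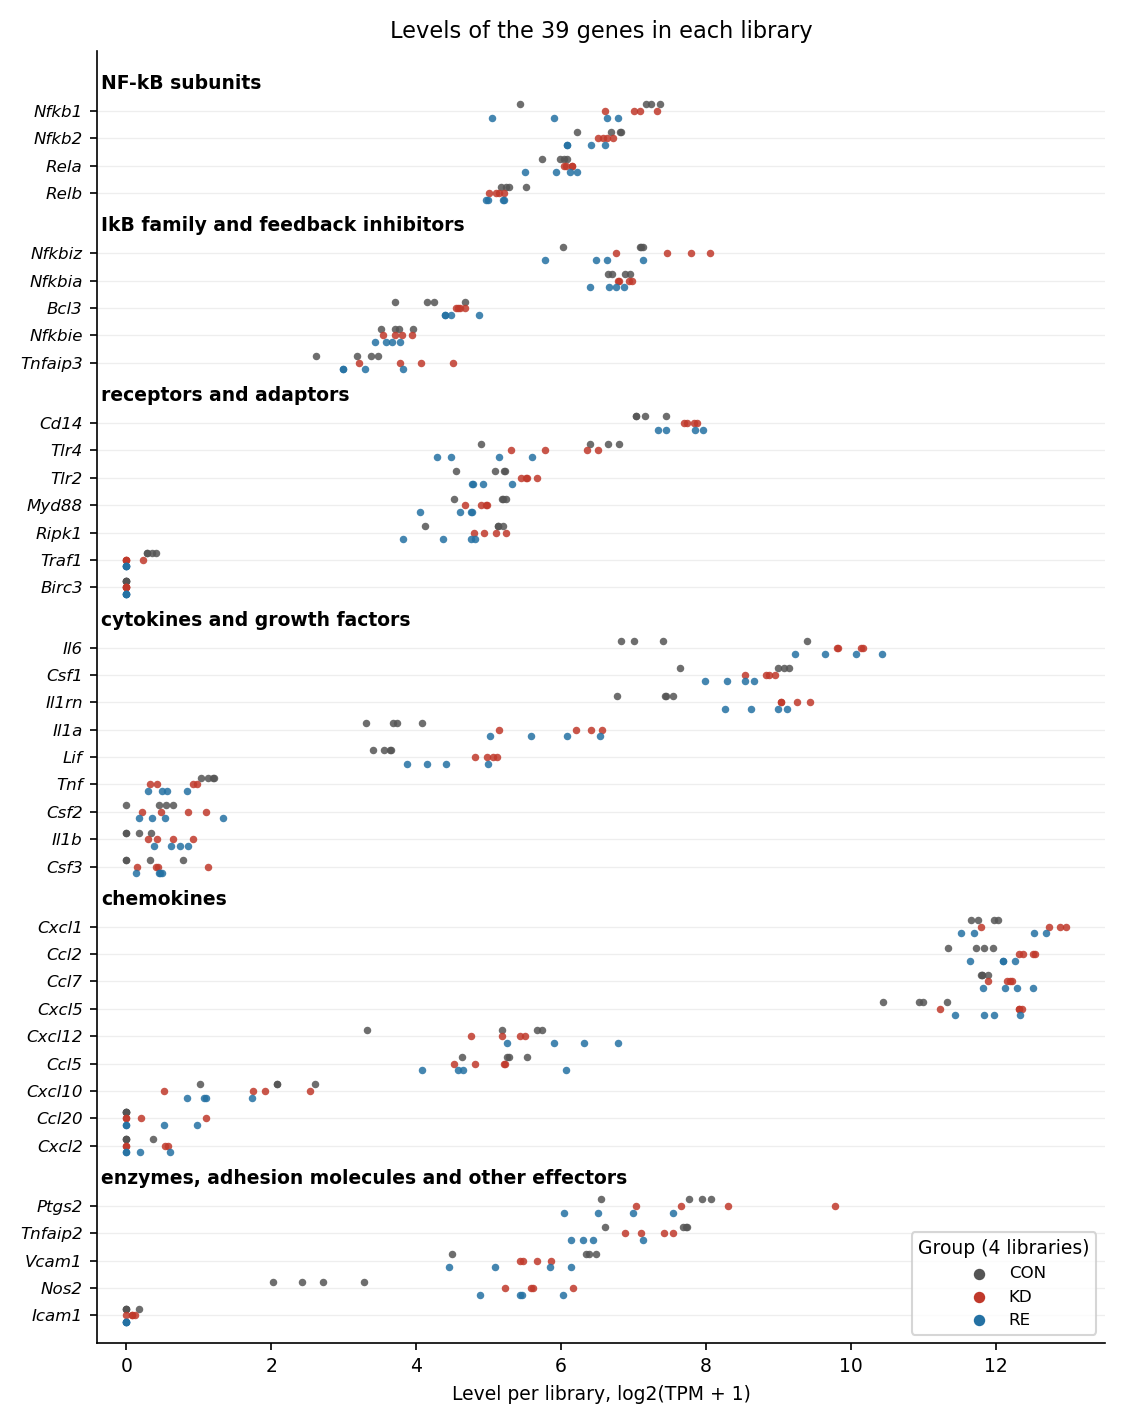
Level of each of the 39 genes as log2(TPM + 1) on the horizontal axis, one point per library, coloured by group (4 libraries each) and ordered by role. Ccl2, Ccl7, Cxcl1 and Cxcl5 lie farthest right, and 9 genes with means under 1 TPM lie at the left edge.

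Promoters of several members hold matches to the kB consensus, and 5 are shown. Among them Cxcl1, Cxcl2 and Nfkbia hold the same site, GGGAATTTCC, and had very different RNA levels. RefSeq promoters of the GRCm38.p6 build, 250 bases before to 50 after the transcript start, were matched by symbol for 27 of the 39 members. The kB consensus (GGG, a purine, any base, A or T, a pair of pyrimidines, CC, on either strand) was found in 12 of these 27 (44.4%), against 5.14% of all 27025 genes with a promoter in the table. A related form (GGGA, any pair of bases, TTCC) was found in 7 (25.9%) against 1.63% of genes. The members were chosen as genes of this pathway or under its control, so their higher shares are no independent test. The forms overlap in part: 240 of the 504 matches to the second over all promoters, and all 11 in the members' promoters, were also matches to the first. Each sequence is written 5′ to 3′ on the strand of its gene, with all matches to the kB consensus on either strand in capitals. Il6 lies at chr5:30012864-30013163 (+), Cxcl1 at chr5:90890995-90891294 (+), Cxcl2 at chr5:90903649-90903948 (+), Nfkbia at chr12:55492598-55492897 (-) and Tlr2 at chr3:83841559-83841858 (-).
Il6: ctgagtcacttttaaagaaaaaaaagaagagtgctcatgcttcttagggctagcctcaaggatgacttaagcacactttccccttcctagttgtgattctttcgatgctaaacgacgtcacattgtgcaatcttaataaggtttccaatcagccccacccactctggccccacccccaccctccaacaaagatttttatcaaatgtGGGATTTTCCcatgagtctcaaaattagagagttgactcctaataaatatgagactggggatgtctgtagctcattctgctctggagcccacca
Cxcl1: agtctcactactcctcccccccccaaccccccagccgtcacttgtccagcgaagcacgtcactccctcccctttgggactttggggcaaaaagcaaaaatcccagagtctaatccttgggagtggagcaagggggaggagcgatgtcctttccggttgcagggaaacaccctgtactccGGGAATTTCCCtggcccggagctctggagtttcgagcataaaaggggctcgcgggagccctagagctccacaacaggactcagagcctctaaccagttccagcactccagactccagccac
Cxcl2: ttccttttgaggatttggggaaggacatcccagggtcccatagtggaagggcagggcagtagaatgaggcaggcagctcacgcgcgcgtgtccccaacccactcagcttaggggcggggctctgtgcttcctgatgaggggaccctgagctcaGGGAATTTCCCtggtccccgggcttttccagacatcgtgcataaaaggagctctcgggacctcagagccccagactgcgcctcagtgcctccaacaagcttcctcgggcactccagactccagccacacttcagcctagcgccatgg
Nfkbia: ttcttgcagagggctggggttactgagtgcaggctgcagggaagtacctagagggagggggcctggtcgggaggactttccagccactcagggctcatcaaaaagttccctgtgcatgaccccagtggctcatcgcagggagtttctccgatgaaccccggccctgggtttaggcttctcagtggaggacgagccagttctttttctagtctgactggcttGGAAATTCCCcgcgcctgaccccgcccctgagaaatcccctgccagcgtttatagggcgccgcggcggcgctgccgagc
Tlr2: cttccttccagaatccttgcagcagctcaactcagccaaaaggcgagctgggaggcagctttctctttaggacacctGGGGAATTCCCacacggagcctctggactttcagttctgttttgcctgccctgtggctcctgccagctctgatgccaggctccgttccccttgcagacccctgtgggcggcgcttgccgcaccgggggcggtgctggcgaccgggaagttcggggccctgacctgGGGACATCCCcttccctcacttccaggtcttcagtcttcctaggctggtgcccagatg

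Cxcl1 and Cxcl2 are neighbours on chromosome 5, 10755 bases apart, and both promoters hold GGGAATTTCC, from -71 to -62 in Cxcl1 and from -97 to -88 in Cxcl2 relative to the start. Their RNA levels were far apart: Cxcl1 lay between 2936 and 7968 TPM in the 12 libraries, and Cxcl2 was listed at 0 in 7 libraries and reached at most 0.518 TPM. Cxcl2 shares 5.84% of its 50-base stretches with Cxcl3, whose means were 0.919 TPM in CON, 1.64 in KD and 0.904 in RE. In Nfkbia the same GGGAATTTCC stands on the opposite strand from -29 to -20, in Il6 the site is GGGATTTTCC from -44 to -35, and Tlr2 holds matches near -173 and at the start itself. A match describes the letters of the window and is no evidence of binding.

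KD against CON asks which genes moved with the loss of Wdr62. In KD 8 of the 30 tested members rose and 0 fell: the interleukins Il6 and Il1a, the receptor antagonist Il1rn, the cytokine Lif, the chemokines Cxcl5 and Ccl2, the inducible nitric oxide synthase Nos2 and the lipopolysaccharide co-receptor Cd14. That is 26.7% of the tested members, against 6.6% of the 11774 tested genes called higher, 3.61% lower and 10.2% in either direction (limma, Benjamini-Hochberg adjusted p under 0.05). The count was 5 without KD 2 or without KD 4. The median log2 fold change was 0.26 over the tested members and -0.01 over all tested genes, and 22 members had a positive value. In 8 members every KD library lay above every CON library, which held for 11.9% of all tested genes, and in none was the order the other way, as in 7.02% of them. These 8 were the called genes with Tlr2 in place of Cxcl5. Without CON 4, RE 1 and RE 3 together 10 members were called higher in KD and 2 lower, the 2 being Vcam1 and Myd88. In that fit 1683 of 11795 tested genes were called higher and 2986 lower. In this and the other comparisons, fewer cells of a type and less RNA per cell cannot be told apart in bulk RNA. The summed leukocyte markers given above were also higher in KD than in CON, with Lyz2 alone called of the 3 tested. Dcn, Fap and Col1a1 of the fibroblast list were lower in KD. Col3a1, Pdgfra and Postn of that list were not called, and its sums overlapped between CON and KD. The part of these markers in the result was not tested.

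The 4 NF-kB subunits among the members showed no call in any comparison over all 12 libraries. Nfkb1 and Nfkb2 encode the precursors of the subunits without a transactivation domain, and Rela and Relb encode subunits with one. So does Rel, which was counted in a pathway list below and was not called either. Rel had -0.13 in KD against CON (limma adjusted p = 0.951), -1.14 in RE against KD (0.232) and -1.28 in RE against CON (0.202). Rela was at 66.5, 62.1, 65.1 and 52.1 TPM in CON, 65.7, 64.7, 70.25 and 70.3 TPM in KD, and 59.9, 68.6, 44.3 and 73.3 TPM in RE. Its groups overlapped, and KD differed from CON by 0.14 (95% interval -0.21 to 0.50, limma adjusted p = 0.685). Nfkb1 was at 163, 151, 144 and 42.1 TPM in CON, 135, 159, 96.0 and 127 TPM in KD, and 58.8, 109, 32.0 and 98.1 TPM in RE. CON 4 and RE 3, low in long transcripts, were the lowest of their groups, and the interval of the KD difference ran from -0.78 to 1.18. Nfkb2 (-0.03) and Relb (-0.19) completed the 4, with adjusted p-values between 0.481 and 0.965. In RE against CON Nfkb1 had -0.71 (limma adjusted p = 0.275) and Nfkb2 -0.34 (0.193), and without CON 4 both were called lower, at -1.17 (0.0144) and -0.48 (0.0181). Nfkb1 was also called without CON 4, RE 1 and RE 3 together (-0.55, adjusted p = 0.0435).

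None of the 5 IkB family and feedback genes was called in KD either, with log2 fold changes of 0.02 to 0.73. Nfkbia, the IkB that NF-kB itself induces, was at 99.2, 103, 117 and 122 TPM in CON and 122, 109.99, 125 and 109.7 TPM in KD. These ranges lay almost on top of each other, and the difference was 0.08 (95% interval -0.21 to 0.37, limma adjusted p = 0.81). Nfkbie, another IkB of the cytoplasm, differed by 0.02 (limma adjusted p = 0.977). Nfkbiz, a nuclear IkB needed for transcription of Il6 and Lcn2, was at 134, 139, 137 and 64.4 TPM in CON, 265, 221, 108 and 175 TPM in KD, and 54.0, 139, 88.7 and 97.8 TPM in RE. KD 1, KD 2 and KD 4 lay above all CON libraries and KD 3 lay below CON 1 to CON 3, and the difference of 0.68 ± 0.35 was not called (limma adjusted p = 0.268). Tnfaip3, the deubiquitinase that ends signalling, had 0.73 ± 0.30 (limma adjusted p = 0.162) and was called with median-of-ratios scaling (adjusted p = 0.0499) and quantile normalization (0.0257), while Bcl3, a nuclear partner of the subunits without a transactivation domain, had 0.40 ± 0.20 (limma adjusted p = 0.268) and was called without CON 4 (adjusted p = 0.0464).

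Of the receptors and adaptors 5 of 7 were tested and Cd14 alone rose. Cd14, which hands lipopolysaccharide to the receptor Tlr4, was at 130.02, 129.5, 141 and 174 TPM in CON, 212, 206, 227 and 234 TPM in KD, and 161, 247, 228 and 174 TPM in RE. All KD libraries were above all CON libraries, with a log2 fold change of 0.62 ± 0.16 (limma adjusted p = 0.025). The call was lost with median-of-ratios scaling (adjusted p = 0.178) and when any of CON 1, CON 2, CON 3 or the 4 KD libraries was left out, with an adjusted p of up to 0.0804. Tlr2, a receptor of bacterial lipoproteins, was at 32.9, 36.02, 36.4 and 22.4 TPM in CON and 45.3, 49.7, 44.9 and 42.8 TPM in KD. Its groups did not overlap, yet its value of 0.53 ± 0.19 was not called (limma adjusted p = 0.0997), and it was called with median-of-ratios scaling (0.0241) and quantile normalization (0.0107). Tlr4 (-0.20), the adaptor of these receptors Myd88 (-0.16) and the kinase Ripk1 (0.12) of the tumour necrosis factor receptor had adjusted p-values between 0.756 and 0.873. Myd88 was called lower without CON 4, RE 1 and RE 3 together (-0.33, limma adjusted p = 0.0408). Exons of Myd88 overlap Acaa1a (51.2 TPM) and exons of Ripk1 overlap Serpinb6a (996 TPM) on the opposite strand, so their values are uncertain if strand was not used in counting.

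The cytokines held the largest share of the rises, with 4 of the 5 tested members. Il6 (chr5:30013114-30019981), which drives the acute-phase response, was at 128, 112, 168 and 674 TPM in CON, 1128, 895, 907 and 1146 TPM in KD, and 596, 1075, 1371 and 796 TPM in RE. Every KD library exceeded every CON library, and CON 4 stood far above the other CON libraries. Il6 rose by 2.33 ± 0.47 in KD (limma adjusted p = 0.00703) and by 2.90 without CON 4.

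Il1a (chr2:129299610-129309972), an alarm cytokine released by damaged cells, was at 16.0, 12.3, 11.8 and 8.93 TPM in CON, 93.7, 83.9, 34.3 and 72.5 TPM in KD, and 31.4, 91.9, 66.6 and 46.9 TPM in RE. No KD or RE library reached down to CON. Il1a rose by 2.38 ± 0.36 in KD (limma adjusted p = 0.00109). The gene shares 9.14% of its 50-base stretches with Gm14023, so part of its reads could be assigned to either.

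Il1rn (chr2:24336853-24351494), the secreted antagonist that blocks the receptor of Il1a and Il1b, was at 172, 185, 174 and 109 TPM in CON, 609.9, 691, 521 and 525 TPM in KD, and 306, 553, 509 and 391.6 TPM in RE. Again no KD or RE library reached down to CON. Il1rn rose by 1.89 ± 0.21 in KD (limma adjusted p = 0.00014), so the agonist and the antagonist rose together, and in TPM the antagonist was the more abundant in every library. The other agonist, Il1b, reached at most 0.885 TPM.

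Lif (chr11:4257557-4272514), a cytokine of the Il6 family, was at 11.6, 9.57, 10.8 and 11.5 TPM in CON, 33.8, 30.4, 32.3 and 27.2 TPM in KD, and 13.7, 30.8, 20.3 and 16.7 TPM in RE. The libraries of CON and of KD lay close together within their group, and KD lay far above CON. Lif rose by 1.43 ± 0.22 (limma adjusted p = 0.00127). Csf1, the growth factor of macrophages, was at 539, 563, 509.7 and 198 TPM in CON and 493, 465, 371 and 452 TPM in KD, a difference of 0.08 (limma adjusted p = 0.931).

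**Figure D2:**
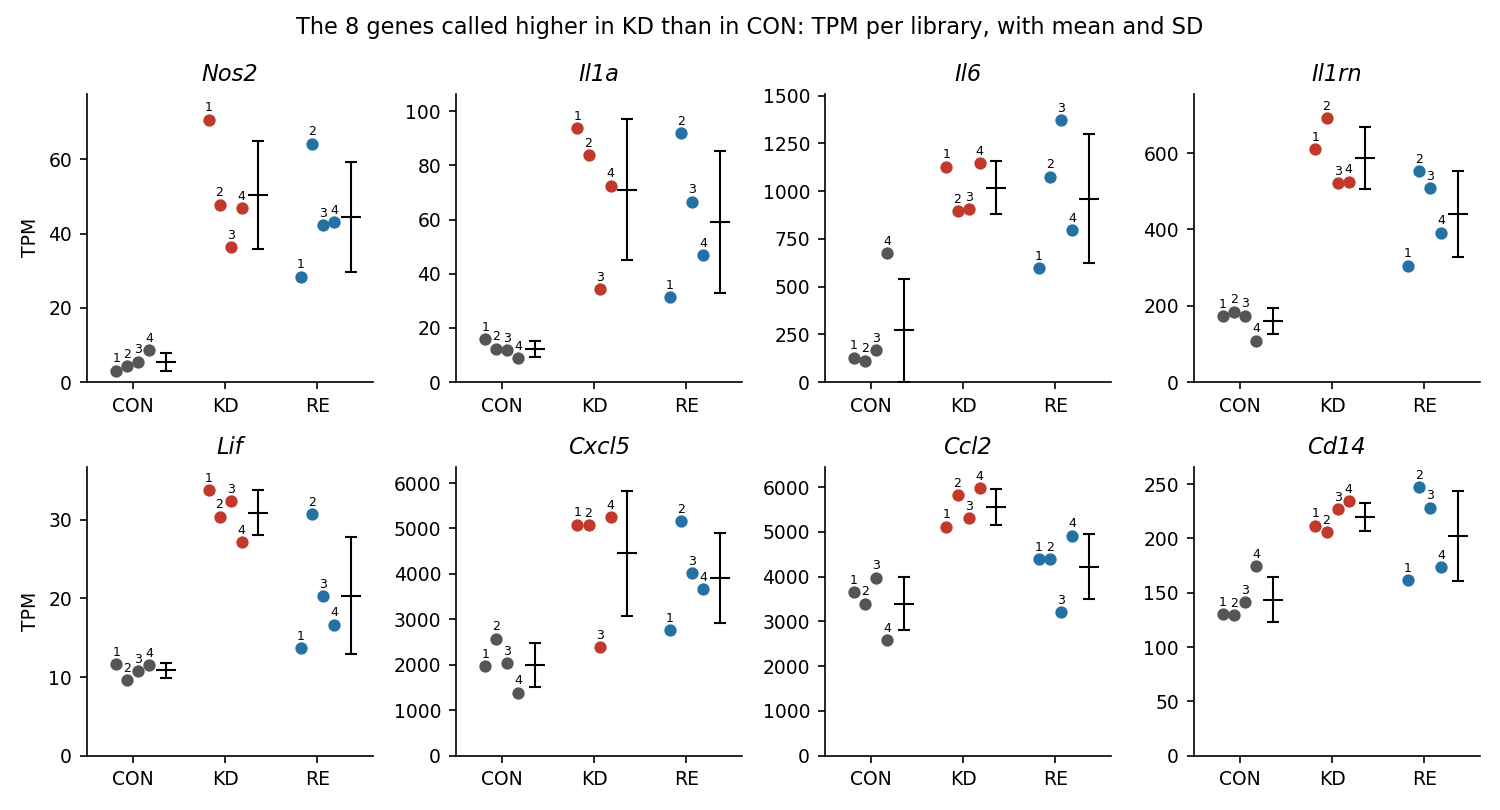
TPM of the 8 genes called higher in KD, one panel per gene with a linear axis from 0; points are the 4 libraries of each group and bars the mean with SD. KD lies above CON without overlap in 7 panels, and in Cxcl5 the library KD 3 (2386 TPM) falls among the CON libraries.

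Of the 7 tested chemokines 2 rose. Cxcl5 (chr5:90759360-90761624) was at 1966, 2573, 2036 and 1386 TPM in CON, 5084, 5077, 2386 and 5253 TPM in KD, and 2769, 5157, 4018 and 3667 TPM in RE. The libraries KD 1, KD 2 and KD 4 lay together far above CON and KD 3 did not. Cxcl5 rose by 1.13 ± 0.28 (limma adjusted p = 0.0233). It was no longer called without CON 1 (adjusted p = 0.0578), CON 3 (0.0567), KD 1 (0.0814), KD 2 (0.0797) or KD 4 (0.0787), and with quantile normalization (0.0912).

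Ccl2 (chr11:82035571-82037453) was at 3646, 3396, 3977 and 2576 TPM in CON, 5116, 5825, 5313 and 5972 TPM in KD, and 4395, 4389.5, 3201 and 4916 TPM in RE. KD lay above both other groups without overlap. Ccl2 rose by 0.72 ± 0.17 in KD (limma adjusted p = 0.0148), and this call was lost without KD 2 (0.0526) or KD 4 (0.0534) and with quantile normalization (0.228). Its neighbour Ccl7, 8258 bases away, was at 3558, 3804, 3597 and 3578 TPM in CON and 3788, 4558, 4766 and 4697 TPM in KD, a difference of 0.29 ± 0.15 that was not called (limma adjusted p = 0.273).

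Cxcl1 (chr5:90891241-90893115), 129616 bases from Cxcl5 and like it a ligand of the neutrophil receptor Cxcr2, was at 3441, 4028, 4192 and 3229 TPM in CON, 7535, 7968, 3543 and 6810 TPM in KD, and 2936, 6623, 5900.05 and 3315 TPM in RE. KD 3 again lay among the CON libraries and the other KD libraries lay far above them. The value of 0.74 ± 0.30 was not called (limma adjusted p = 0.156), and it was 1.00 and called without KD 3 (adjusted p = 0.0341). Ccl5 (-0.24), Cxcl10 (-0.27) and Cxcl12 (0.24), the first and second of which attract T cells and the last blood stem cells, were not called, with adjusted p-values of 0.799, 0.802 and 0.857.

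Among the effectors Nos2 showed the largest fold change of any tested member. Nos2 (chr11:78920787-78960254), which makes nitric oxide in inflamed tissue, was at 3.07, 4.38, 5.54 and 8.70 TPM in CON, 70.6, 47.7, 36.2 and 46.8 TPM in KD, and 28.4, 64.2, 42.2 and 43.0 TPM in RE. The lowest KD or RE library, RE 1, was far above the highest CON library, CON 4. Nos2 rose by 3.03 ± 0.31 (limma adjusted p = 5.93e-05). Ptgs2, the inducible cyclooxygenase, was at 246, 267, 215 and 93.1 TPM in CON, 874, 316, 129 and 200.3 TPM in KD, and 64.7, 185, 90.3 and 126 TPM in RE. KD 1 stood alone at the top, and the value of 0.61 ± 0.54 was not called (limma adjusted p = 0.575). The adhesion molecule Vcam1 (-0.32) and Tnfaip2 (-0.20), a gene induced by tumour necrosis factor, were not called, with adjusted p-values of 0.767 and 0.769. Vcam1 was called lower without CON 4, RE 1 and RE 3 together (-0.80, limma adjusted p = 0.00133).

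Members with and without a kB match in the promoters searched had like medians in KD. Of all tested genes 6.6% were called higher in KD. Of 10 tested members with a match to the kB consensus 1 rose, which was Il6, and their median log2 fold change in KD was 0.24. Of 9 tested members whose promoter had no match 3 rose, namely Il1a, Il1rn and Lif, with a median of 0.24. The remaining 4 risen genes (Ccl2, Cd14, Cxcl5 and Nos2) were among 11 tested members with no promoter in the table, with a median of 0.29. With those 4 unsearched and few members in each class, a link between match and rise was not tested.

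**Figure D3:**
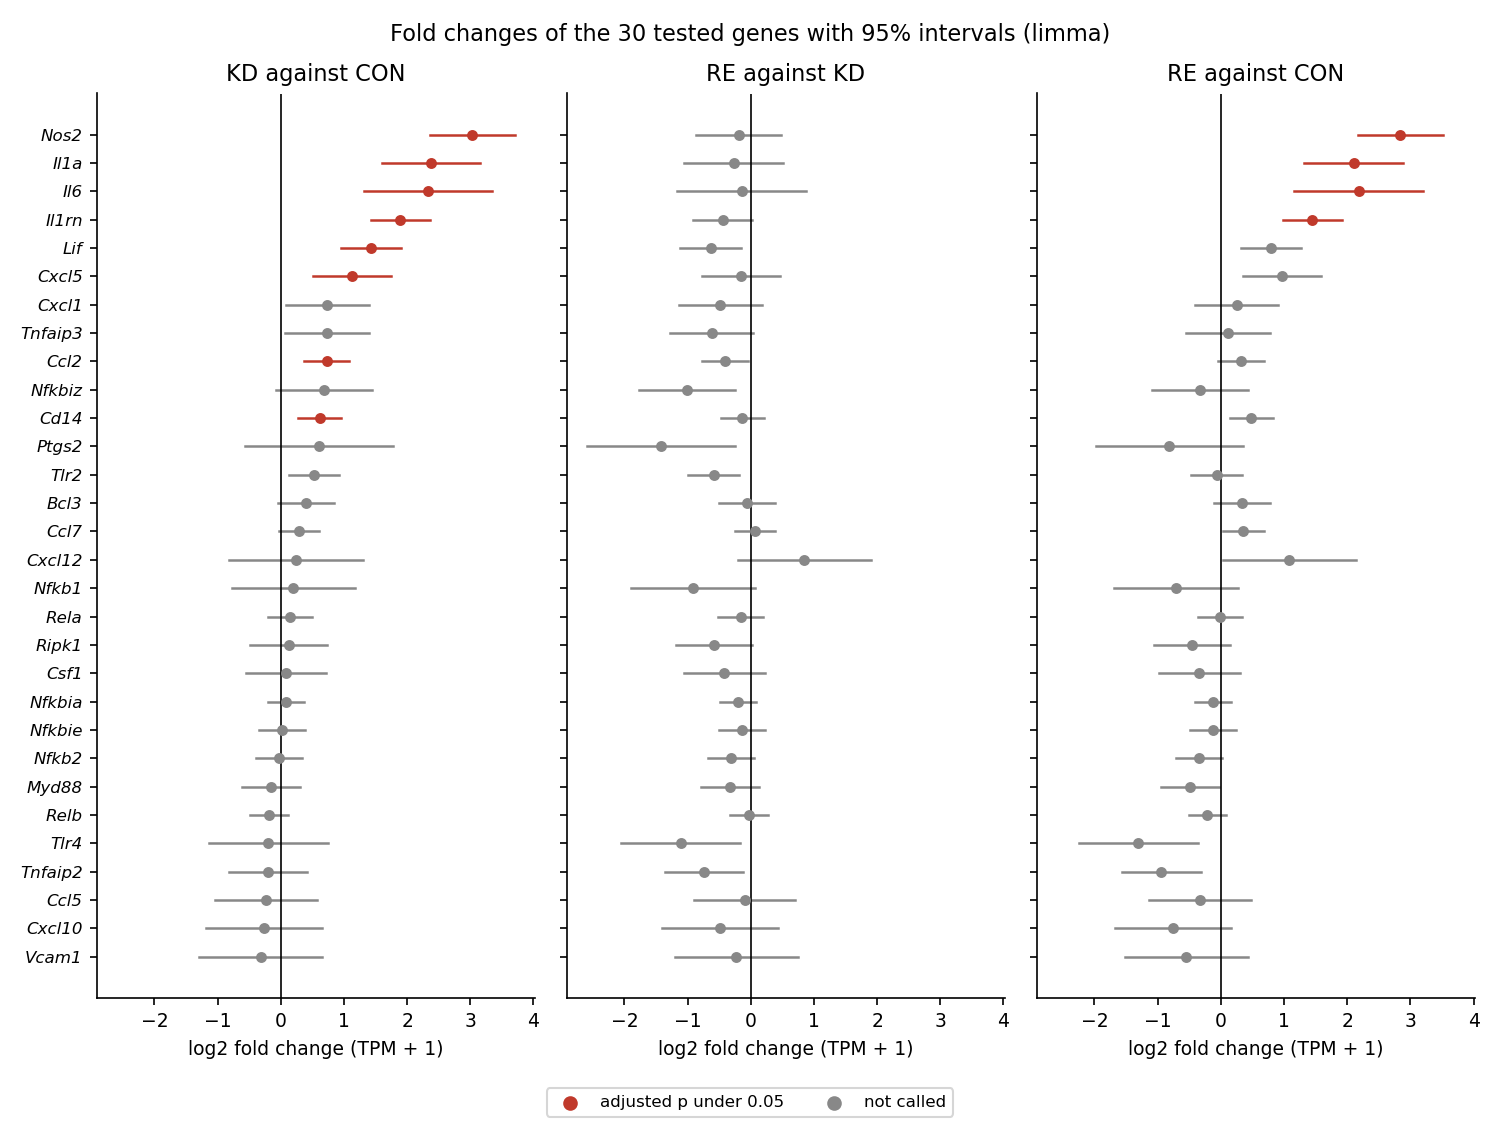
Log2 fold changes on the TPM + 1 scale with 95% limma intervals for the 30 tested genes in 3 panels (KD against CON, RE against KD, RE against CON), marked by whether they were called. In KD against CON 8 genes are called, all to the right of 0; in RE against KD no gene is called; in RE against CON 4 are called, all to the right.

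The libraries labelled RE were compared with KD to ask what the added WDR62 virus changed. By the labels RE differs from KD in the insert, the pCDH vector and a further infection, and this comparison cannot separate them. No tested member was called in either direction, against 1.04% of all tested genes called, 0.187% higher and 0.858% lower (22 and 101 genes, or 32 and 46 with median-of-ratios scaling), and 7 of the 30 had an unadjusted p under 0.05 against 28% of all tested genes. The lowest adjusted p was 0.114, for Tlr2 (limma, Benjamini-Hochberg). The member median was -0.32, close to the median of all tested genes of -0.29. With median-of-ratios scaling the 2 medians were -0.00 and 0.00, and 15 of 30 members had a positive value in place of 2. Without CON 4, a library of neither group whose spread enters the shared estimate, 6 members were called, all lower in RE. They were Ccl2, Lif, Nfkbiz, Tlr2, Tlr4 and Tnfaip2. In that fit 2798 of 11770 tested genes were called, 451 higher and 2347 lower. Without RE 2 the number of called members was 1, which was Lif, against 518 of 11783 tested genes.

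Intervals of this comparison differ in width among the 8 genes that rose in KD. Nos2 changed by -0.19 (95% interval -0.86 to 0.48), Il1a by -0.27 (-1.05 to 0.50) and Il6 by -0.15 (-1.16 to 0.87). Lif had -0.64 (-1.11 to -0.16, limma adjusted p = 0.132), with 3 RE libraries below the lowest KD library and RE 2 at 30.8 TPM among the KD libraries. Ccl2 had -0.41 (-0.77 to -0.05, limma adjusted p = 0.158), with no overlap between the groups, and Il1rn had -0.44 (-0.91 to 0.02, limma adjusted p = 0.189). Tlr2, at 26.3, 39.1, 26.6 and 29.3 TPM in RE, was the other member whose RE libraries all lay below KD, which 10.8% of all tested genes did, and no member lay wholly above, as 3.47% did. Its value was -0.59 (-0.99 to -0.19).

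RE against CON compares cells that share the pCDH vector and differ in the guide and the insert. It shares the CON libraries with the first comparison and the RE libraries with the second. Here 4 of the 30 tested members were higher in the libraries labelled RE and 0 lower (13.3%, against 2.7% of tested genes called higher, 3.63% lower and 6.33% in either direction). Over all tested genes 318 were higher and 427 lower, and 592 and 504 with median-of-ratios scaling. In 5 members (Il1a, Il1rn, Cxcl5, Lif and Nos2) all RE libraries lay above all CON libraries and in none below, against 4.46% and 4.76% of tested genes. Nos2 rose by 2.84 ± 0.31 (limma adjusted p = 0.000121), Il6 by 2.18 (0.0143), Il1a by 2.102 (0.00342) and Il1rn by 1.45 (0.00127). Il6 was no longer called without CON 1 (adjusted p = 0.0569), CON 2 (0.0557), CON 3 (0.055) or RE 3 (0.05, just above the limit), and when the 2 groups were fitted alone (0.0676). The other 4 genes risen in KD had values of 0.97 for Cxcl5 (adjusted p = 0.0645), 0.79 for Lif (0.0534), 0.48 for Cd14 (0.0951) and 0.31 for Ccl2 (0.214).

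The count of called members in RE against CON depended on CON 4, as did that of all tested genes. Without that library 17 of the 30 tested members were called, 8 higher and 9 lower. In the same fit 6212 of 11770 tested genes were called, 1277 higher and 4935 lower. Without CON 4, RE 1 and RE 3 the members gave 7 higher and 5 lower, against 957 and 2867 of 11795 tested genes. CON 4 was the lowest CON library in 21 of the 30 tested members, whose median transcript length was 3846 bases, and the highest in 7, whose median was 1850 bases. The 7 were Relb, Nfkbia, Bcl3, Il6, Ccl5, Nos2 and Cd14. The member median in RE against CON was -0.09, with -0.27 over all tested genes, and 0.21 with 0.01 after median-of-ratios scaling. Tlr4 illustrates the lowest values: at 99.2, 109.9, 83.3 and 28.8 TPM in CON, 80.6, 89.9, 38.7 and 53.7 TPM in KD, and 18.6, 47.5, 21.2 and 34.4 TPM in RE, it had -1.30 in RE against CON (limma adjusted p = 0.0994) and -1.73 without CON 4 (adjusted p = 0.00276).

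**Figure D4:**
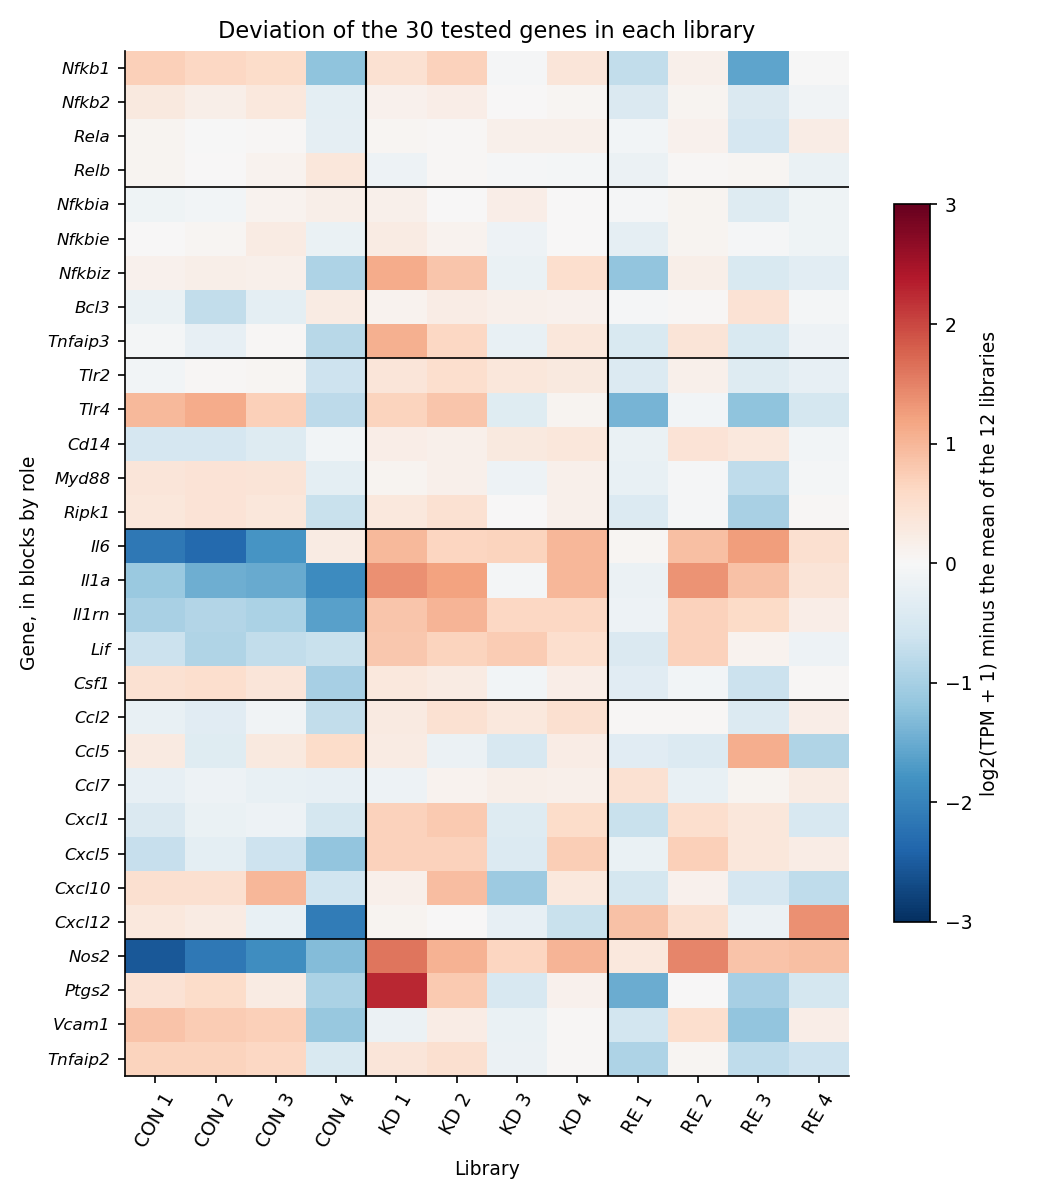
Deviation of each of the 30 tested genes from its mean over the 12 libraries, in log2(TPM + 1), with libraries in columns and genes in rows grouped by role; red is above and blue below the mean. Nos2, Il1a, Il6, Il1rn and Lif are mostly blue in CON, apart from Il6 in CON 4, and mostly red in KD, and CON 4 is blue in many genes where CON 1 to CON 3 are red.

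The 9 untested members are the rest of the module. Birc3, an inhibitor of cell death, was listed at 0 in every library. Traf1, an adaptor of the tumour necrosis factor receptor family, was at 0.224, 0.335, 0.224 and 0.274 TPM in CON, at 0 in KD 1, KD 2 and KD 4 with 0.173 TPM in KD 3, and at 0 in all RE libraries. All 4 CON libraries were thus above all others, at levels under the limit for a test. With no filter on low values Traf1 was called lower on the log2(TPM + 1) scale in KD against CON (-0.28 ± 0.05, limma adjusted p = 0.00539) and in RE against CON (-0.34 ± 0.05, 0.00232), the only fall called among the members in that fit. Tnf was at 1.04, 1.31, 1.30 and 1.18 TPM in CON, 0.966, 0.337, 0.258 and 0.894 TPM in KD, and 0.229, 0.407, 0.790 and 0.483 TPM in RE, again with every CON library above the rest, and with no filter it was not called (limma adjusted p = 0.0882 in KD and 0.0516 in RE against CON). Il1b, Csf2, Csf3 and Ccl20 reached at most 0.885, 1.52, 1.19 and 1.15 TPM, and the adhesion molecule Icam1 at most 0.124 TPM. A value of 0 in such a table can be a failed estimate.

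The wider pathway was followed in 4 lists of 163 other genes. The lists were chosen with earlier results of these data known, so their called shares are no independent test. Of the 163 genes 112 were tested. In KD 20 of these rose and 1 fell (18.8%), against 10.2% of all tested genes called, 6.6% higher and 3.61% lower. Their median was 0.18. Without CON 4 the number called was 33, 27 higher and 6 lower. All tested genes then gave 2406 of 11770, 1119 higher and 1287 lower. In the list of adaptors, kinases and ubiquitin enzymes, which also held the subunit gene Rel, 3 of 40 tested genes rose and 0 fell (7.5%, median -0.00). This share was near that of all tested genes. Those that rose were Irak3, the kinase homologue that inhibits signalling from Toll-like receptors, by 1.76 ± 0.30 (limma adjusted p = 0.00232), Irak2, which relays it, by 0.74 ± 0.19 (0.0254), and Ikbke, a kinase related to the IkB kinases, by 0.60 ± 0.17 (0.0483). Irak2 was not called when CON 1, CON 3, KD 1, KD 2 or KD 4 was left out (highest adjusted p = 0.0889), nor Ikbke when any of CON 1 to CON 3, KD 1 to KD 4, RE 1 and RE 2 was (0.144). The IkB kinase genes Chuk (0.43), Ikbkb (0.26) and Ikbkg (0.30) were not called. Irak3 was at 5.35, 5.44, 4.46 and 3.76 TPM in CON, 23.0, 20.02, 11.7 and 20.6 TPM in KD, and 5.08, 15.3, 9.66 and 8.53 TPM in RE, so that KD lay above CON and RE overlapped both.

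Of 26 tested receptors 5 rose and 1 fell in KD (23.1%, against 10.2% of all tested genes). Nod1 and Nod2, cytoplasmic sensors of bacterial cell wall fragments, rose by 1.82 ± 0.24 (limma adjusted p = 0.00046) and 1.18 ± 0.20 (0.00289), and the death receptor Fas by 0.93 ± 0.16 (0.00312). Nod1 was at 5.11, 4.89, 6.47 and 4.56 TPM in CON, 28.4, 24.2, 13.1 and 21.4 TPM in KD, and 9.985, 16.3, 13.3 and 12.3 TPM in RE, with no overlap between CON and either group. Cxcr4, the receptor of Cxcl12, fell by 1.47 ± 0.20 (0.000568): it was at 4.50, 3.59, 4.03 and 4.63 TPM in CON, 1.18, 0.652, 0.385 and 1.41 TPM in KD, and 0.527, 0.583, 0.137 and 0.417 TPM in RE. Its ligand gene Cxcl12 was not called in any comparison on the TPM as deposited. In RE against CON it had 1.09 (limma adjusted p = 0.17), and it was called higher there with median-of-ratios scaling (1.39, adjusted p = 0.0325) and quantile normalization (1.30, 0.0313).

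Of 20 tested further cytokines and chemokines 3 rose and 0 fell (15%, against 10.2% of all tested genes). They were Il11, a relative of Il6, by 1.79 ± 0.34 (limma adjusted p = 0.00519), the lymphocyte growth factor Il7 by 1.55 ± 0.17 (0.000139) and Il12a, a subunit of a T cell cytokine, by 1.15 ± 0.19 (0.00179). All 3 were low, with KD means of 7.98, 3.33 and 5.47 TPM. Of 26 tested textbook NF-kB targets outside the module 9 rose and 0 fell (34.6%, against 10.2% of all tested genes), with a median of 0.62. This list too was chosen with earlier results known, so its share is no independent test. The largest values were those of the iron-binding acute-phase gene Lcn2 (4.35 ± 0.73), haptoglobin Hp (3.52 ± 0.51) and serum amyloid Saa2 (3.02 ± 0.54), with limma adjusted p-values of 0.00235, 0.000791 and 0.00345. Lcn2 was at 40.2, 43.8, 72.5 and 464 TPM in CON, 1900.07, 1776, 1365 and 2354 TPM in KD, and 659, 1240.5, 3600.45 and 532 TPM in RE; as in Il6, CON 4 was the highest CON library.

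Set against KD, 0 of the 112 rose and 4 fell (3.57%, against 0.858% of all tested genes lower and 1.04% called) in the libraries labelled RE: the chemokine Cx3cl1, the matrix protease Mmp3, the complement gene C3 and the pentraxin Ptx3. Their limma adjusted p-values were 0.0385, 0.00862, 0.0376 and 0.0376. Mmp3 was at 5.04, 2.72, 5.24 and 5.53 TPM in CON, 17.9, 23.3, 41.6 and 17.7 TPM in KD, and 3.46, 5.62, 4.93 and 5.36 TPM in RE. KD stood alone above both other groups: Mmp3 rose by 2.16 ± 0.29 in KD (limma adjusted p = 0.000496), fell by 2.09 ± 0.29 in RE against KD, and had 0.07 ± 0.29 in RE against CON (0.865). KD is also the only group whose labels name no pCDH vector, and the part of the vector in this pattern of Mmp3 was not tested. The call of Mmp3 in RE against KD held without each single library. Those of Cx3cl1, C3 and Ptx3 were lost without each of CON 1 to CON 3, KD 1, KD 2, KD 4, RE 1, RE 3 and RE 4 (adjusted p up to 0.175 for Cx3cl1 and 0.17 for C3 and Ptx3). The total of 4 was 32 without CON 4, 10 without RE 2 and 1 without any one of 9 others (all but KD 3). All tested genes gave 2798 of 11770 without CON 4 and 518 of 11783 without RE 2. In RE against CON 8 rose and 3 fell (9.82%), against 6.33% of all tested genes called, 2.7% higher and 3.63% lower. The 3 that fell are a share no higher than that of all tested genes. The 8 were Fas, Nod1, Il7, Il11, Lcn2, Saa3, Saa2 and Hp, and the 3 were Cxcr4, the eosinophil chemokine Ccl11 and the co-stimulatory receptor Cd40. Without CON 4 the number called was 59, 22 higher and 37 lower. All tested genes then gave 6212 of 11770, 1277 higher and 4935 lower. Single libraries ended the calls of Fas (without CON 1, adjusted p = 0.0527), Il11 (CON 1, CON 2 or CON 3, up to 0.0616), Saa2 (CON 2 or CON 3, up to 0.0607) and Cd40 (CON 2, CON 3, KD 1, KD 4, RE 1, RE 3 or RE 4, up to 0.123).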

How the data were processed

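The authors deposited 1 table of TPM for 12 libraries (3 groups of 4). The submitters' processing notes name Trim Galore 0.6.6 for trimming, TopHat2 2.1.1, Cufflinks 2.2.1 and the mm10 build; the annotation, the use of strand and the step to TPM are not given in the sources used here. The control columns are named WT and were assigned to CON by its genotype label, with no link to single samples. No column of another sample is present. The labels do not say whether replicates were separate cultures. The p-values therefore cover only the spread among these libraries, and that spread may be technical.

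TPM were tested as log2(TPM + 1) for the 11774 genes with a mean of at least 1 TPM, with limma 3.58.1 (R 4.3.3) on all 12 libraries, a mean-variance trend, two-sided tests and Benjamini-Hochberg adjustment over all tested genes, called under 0.05. Adding 1 understates the change of low genes. The fit was run on simulated data with independent noise for each gene and library. Those data held no shift shared by the genes of a library, so they do not test the effect of such a shift. Members and lists were chosen with earlier results of these data known. Every member is accounted for, and from each pathway list up to 3 called genes with the largest rise or fall in KD are named; genes named outside that rule (Cxcl3, the IkB kinases, receptors of the members, called marker genes, the genes called in RE) were chosen after their values were seen or for their role. Gene positions and transcript lengths come from GENCODE vM21 (GRCm38). Alternatives were another pseudocount, other filters, scalings and variance settings, a replicate block, and leaving out libraries.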

Additional observations from a re-analysis of the deposited data

Results flagged for a closer look

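Among the 90 groups of 4 libraries formed by the 30 tested members, 13 held a library far from the other 3, where the gap to its neighbour took more than 0.829 of the group's range. Chance would flag about 5% of independent groups. The 90 groups come from the same 12 libraries, so the 13 cannot be set against that share. CON 4 was that library in 9 of the 13, and it is also the CON library with the lowest long transcripts.

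CON 4 was the low library in 8 genes. Nfkb1 was at 42.1 TPM there against 144 to 163 TPM in the other CON libraries, and Vcam1 at 21.5 against 80.2 to 88.5 TPM. Nfkbiz was at 64.4 TPM (others 134 to 139), Tnfaip2 at 96.4 (205 to 212) and Csf1 at 198 (509.7 to 563). The adaptor genes Myd88 and Ripk1 were at 22.0 TPM (35.3 to 36.6) and 16.4 TPM (33.8 to 35.7). Il1rn was at 109 TPM (172 to 185). Il6 went the other way in CON 4, at 674 TPM against 112 to 168 TPM, the only one of the 9 in which that library was high.

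The other 4 were spread over the groups. In KD 3 Cxcl5 was at 2386 TPM against 5077 to 5253 TPM in the other KD libraries. In RE 3 Ccl5 was at 66.3 TPM against 16.0 to 24.02 TPM, and Bcl3 at 28.2 TPM against 19.98 to 21.4 TPM. In CON 2 Ccl7 was at 3804 TPM against 3558 to 3597 TPM, a small difference beside a very tight group.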

How the results depend on the processing

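Of the 8 genes called in KD against CON, Nos2, Il1a, Il6, Il1rn and Lif kept their call in all 22 alternatives. Ccl2 lost it in 5, Cxcl5 in 6 and Cd14 in 10, and 6 other members gained a call in at least 1. Of these, Vcam1 and Myd88 were called lower. In RE against KD 6 members gained one. In RE against CON Il6 lost its call in 5 alternatives, 14 members gained one, and Il1a, Il1rn and Nos2 kept theirs in all 22. Traf1, under the filter, was called lower in KD and RE against CON with no filter. No called member changed sign. Of 1977 member values under an alternative 73 had the other sign, none called in either fit, and 54 of these were in the comparisons with RE.

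The called totals that moved by more than 1.5 times are these, with the cause not tested. In KD against CON, all tested genes gave 1202 calls, 1904 with quantile normalization, 693 with a log2 fold change of at least 1 as well, and 4669 without CON 4, RE 1 and RE 3. The pathway lists gave 21, 34 with no filter and 50 without those 3 libraries. In RE against KD, all tested genes gave 123, 78 with median-of-ratios scaling, 49 with the 2 groups fitted alone, 79 with the fold limit and 63 without the 3 libraries. The pathway lists gave 4, 2 with no filter, and 1 with median-of-ratios scaling, the groups alone or without the 3 libraries. In RE against CON, all tested genes gave 745, 452 at a mean of 5 TPM, 1178 with quantile normalization, 409 with the groups alone and 3824 without the 3 libraries. The members gave 4, 7 with median-of-ratios scaling or quantile normalization (7 higher and 0 lower, 6 and 1) and 12 without the 3 libraries. The pathway lists gave 11, 17 with no filter, 19 with either scaling, 6 with the groups alone and 43 without the 3 libraries.

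Leaving out 1 library at a time, all tested genes gave 744 to 2406 calls in KD against CON, 13 to 2798 in RE against KD and 404 to 6212 in RE against CON, each highest without CON 4. The members gave 5 to 9, 0 to 6 and 3 to 17, and the pathway lists 14 to 33, 1 to 32 and 8 to 59.

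The replicate numbers are shared by the groups, but not every same-numbered pair deviated together. For KD and CON numbers 1, 2 and 4 correlated (0.482, 0.584 and 0.44), each best with its own number, and number 3 did not (-0.518). Number 2 also correlated for RE and KD (0.652) and RE and CON (0.537), and the other pairs with RE ran from -0.709 to 0.239. The labels do not say what a number shares, and CON columns are linked to no single sample, so the numbers were not taken as pairs. With the replicate block the members gave 6, 0 and 4 calls, all tested genes 824, 19 and 518, and the pathway lists 16, 1 and 8; Ccl2 (adjusted p = 0.0559) and Cd14 (0.0618) lost their calls in KD against CON. Depth is unknown, so the precision of low genes, such as the 9 untested members, cannot be given.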

Other observations

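Receptors of the ligands that rose in KD were looked at after the ligands' values were known. Il6st, the signalling chain shared by Il6, Lif and Il11, had a mean of 96.0 ± 50.3 TPM in CON, 113 ± 47.6 TPM in KD and 41.8 ± 16.9 TPM in RE (SD, n = 4). Il6ra was at 16.5 ± 10.1, 9.55 ± 3.66 and 3.81 ± 3.01 TPM, and Lifr at 13.3 ± 4.14, 10.99 ± 3.37 and 7.99 ± 1.13 TPM. The receptor of Il1a, Il1r1, was at 35.8 ± 17.5, 46.9 ± 12.02 and 23.0 ± 9.42 TPM, and its partner chain Il1rap at 23.1 ± 12.2, 60.9 ± 26.3 and 23.8 ± 13.498 TPM. None of these 5 was called in any comparison, and in each of them CON 4 was the lowest CON library, with Il6ra at 1.62 TPM there against 19.0 to 23.0 TPM in the other 3.

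Receptors of the most abundant chemokines were listed at or near 0. Ccr2, the receptor of Ccl2 and Ccl7, was listed at 0 in all 12 libraries, and Cxcr2, the receptor of Cxcl1 and Cxcl5, was above 0 in 1 library, at 0.0278 TPM in KD 2; a value of 0 here can be a failed estimate. Ackr3, the other receptor of Cxcl12, was at 28.2 ± 2.75 TPM in CON, 30.9 ± 5.97 TPM in KD and 17.6 ± 7.75 TPM in RE and was not called in any comparison.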
